A study of Homo sapiens with 3 samples.

Results

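Genes that sense or restrict foreign nucleic acid, 8 in all, were followed on 3 single-channel expression arrays of HEK293T cells: IFI16, AIM2, ZBP1, TREX1, SAMHD1, APOBEC3B, APOBEC3C and APOBEC3G. They were taken as every probe set (the group of short probes on the chip that reports 1 transcript) whose annotated symbol is one of these names. This gave 13 of the 22277 probe sets, 10 of them with that symbol alone, so that 7 of the 8 genes had a set of their own among 11963 named genes. TREX1 had no set of its own, since both of its sets are annotated to ATRIP as well. HEK293T is an established line derived from human embryonic kidney that makes the simian virus large T antigen. All 3 cultures were transfected with plasmids in Fugene HD (2 µg of DNA and 6 µl of reagent) and carried dCas9VP160, a nuclease-dead Cas9 joined to a transcriptional activation domain. They differed in the guide RNA. One array had sgIL1RN1~3, aimed at the IL1RN promoter, and 1 had sgTetO, aimed at the bacterial TetO promoter. The remaining array had sgTetOmut, a mutant form of sgTetO with no target, which served as control. The label sgIL1RN1~3 can be read as guides 1 to 3, so the target and the number of guides may both differ from sgTetO. Each condition was 1 array of 1 transfected culture, and cells without transfection were not analysed here. No test between conditions was therefore possible, no value below has a replicate error, and the number of arrays limits the precision.

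Cells read DNA outside the nucleus, and other misplaced nucleic acid, as a sign of infection. IFI16 and AIM2 belong to the PYHIN family, whose HIN domains bind double-stranded DNA, and ZBP1 binds nucleic acid in the left-handed Z form. TREX1, SAMHD1 and the APOBEC3 enzymes act on the nucleic acid itself or on its building blocks, and many of these genes are known to be raised by interferon. HEK293T cells are known to express little cGAS or STING, the main sensor and adaptor of this route. Plasmid transfection delivers DNA to the cytosol, and all 3 cultures shared it.

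Among the 8 genes, IFI16 stood furthest apart between the arrays, and SAMHD1 and APOBEC3G (by 1 of its 2 sets) followed with smaller differences in the same order: highest with sgTetOmut, lower with sgTetO and lowest with sgIL1RN1~3. ZBP1, APOBEC3B and APOBEC3C differed by at most 0.20 log2 units between any pair of arrays. AIM2 was not above background on any array. Values are the deposited log2 expression values, so that a difference of 1 is 2-fold, and background is the highest of 27 chip controls for Bacillus subtilis transcripts, which human cells lack. That highest control was 3.40 with sgIL1RN1~3, 3.40 with sgTetO and 3.29 with sgTetOmut on the log2 scale. Levels of different probe sets are not strictly comparable, because probes differ in brightness, and differences between arrays are taken within the same set. Comparisons with background, and later with the median level, do set different sets side by side and share this limit. So do the highest gene of a list and summed marker levels.

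IFI16 is a nuclear and cytosolic DNA sensor, and its 3 probe sets gave the same order of arrays. Set 208965_s_at read 3.40 on the sgIL1RN1~3 array, 3.74 on sgTetO and 5.44 on sgTetOmut on the log2 scale. It was thus clearly above background with sgTetOmut, 0.34 units above it with sgTetO, and just under it with sgIL1RN1~3. Set 208966_x_at, whose suffix marks possible cross-hybridization, read 3.26 with sgIL1RN1~3, 3.61 with sgTetO and 5.0 with sgTetOmut on the same scale. It also lay under background with sgIL1RN1~3. Set 206332_s_at read 3.64 with sgIL1RN1~3, 4.27 with sgTetO and 4.92 with sgTetOmut, above background on all 3 arrays.

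IFI16 was lower with sgTetO than with sgTetOmut, with a log2 difference of -1.69 in set 208965_s_at (3.23-fold lower), -1.39 in set 208966_x_at (2.63-fold lower) and -0.66 in set 206332_s_at (1.57-fold lower). The 3 sets shared the direction and not the size. Between sgIL1RN1~3 and sgTetOmut, IFI16 was at least 4.09-fold lower with sgIL1RN1~3 in set 208965_s_at and at least 3.02-fold lower in set 208966_x_at, both computed against the highest Bacillus control because the sgIL1RN1~3 value lay under it. The remaining set was 2.43-fold lower. Of the 3 IFI16 sets, 2 were thus at least 2-fold lower with sgTetO, where 0.325% of the 19070 probe sets with 1 symbol were, and 3 of 3 with sgIL1RN1~3, where 0.404% were. These shares carry no minimum level. Between sgIL1RN1~3 and sgTetO the log2 difference was -0.63 in set 206332_s_at, the IFI16 set above background on both arrays. Its sgIL1RN1~3 value lay only 0.24 units above background, so the size of this difference is uncertain too. In the other 2 IFI16 sets the sgIL1RN1~3 value lay under background, so that the size of their difference from sgTetO is not known. In RNA from whole cultures, fewer cells with a transcript and less of it per cell cannot be told apart.

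**Figure D1:**
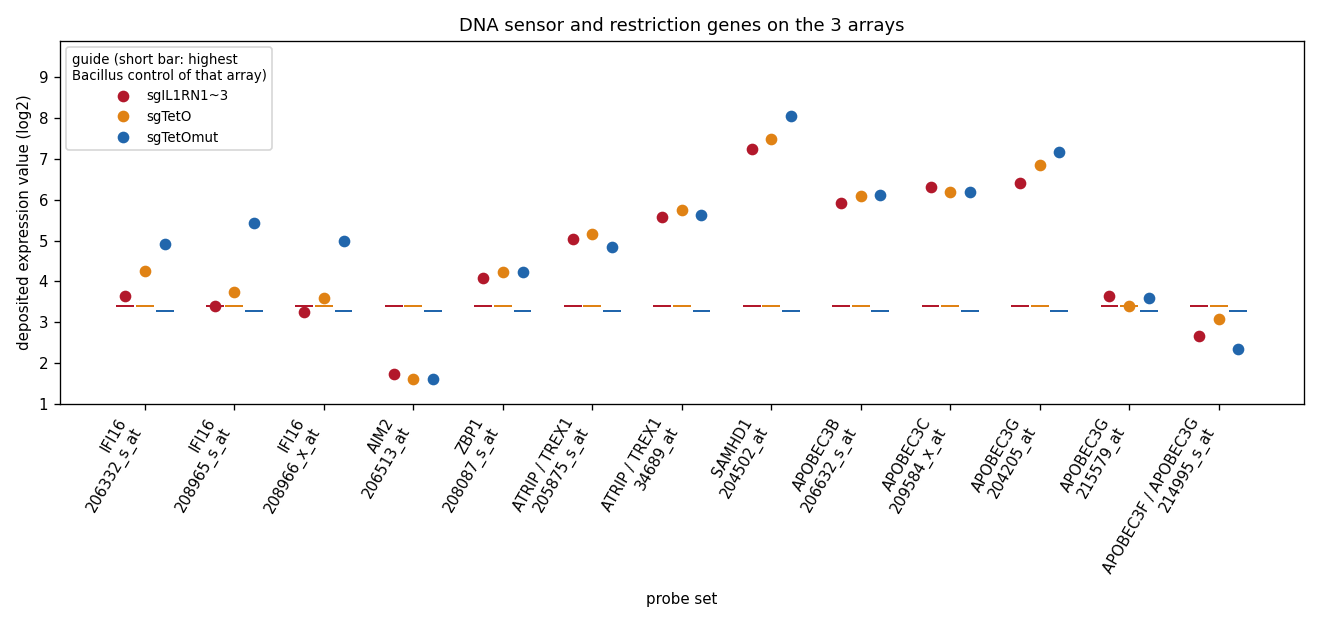
Deposited log2 values (vertical axis) of the 13 probe sets of the 8 genes (horizontal axis), with 1 point per array for sgIL1RN1~3, sgTetO and sgTetOmut from left to right and a short bar at that array's highest Bacillus control. The sgTetOmut point lies above both others in all 3 IFI16 sets and in SAMHD1, while the 3 AIM2 points lie between 1.62 and 1.73, below every bar.

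The start regions of the genes were read from RefSeq (GRCh38.p14), whose promoter table matched 4 of the 8 genes with 5 windows, IFI16 having 2 annotated starts. Windows of 250 bases before the start are shown for IFI16 and SAMHD1, as genes with the larger differences, and for AIM2, the next gene along from IFI16, which was at background. They were searched on both strands for GAAANNGAA, a core of the interferon-stimulated response element, for AANNGAAA, the shorter core bound by interferon regulatory factors, and for TTCNNNGAA, the gamma-activated sequence. The first 2 motifs can overlap each other. Capitals mark every match, and each sequence runs 5′ to 3′ on the strand of its gene.
IFI16, upstream start (chr1:159008741-159008990, plus strand): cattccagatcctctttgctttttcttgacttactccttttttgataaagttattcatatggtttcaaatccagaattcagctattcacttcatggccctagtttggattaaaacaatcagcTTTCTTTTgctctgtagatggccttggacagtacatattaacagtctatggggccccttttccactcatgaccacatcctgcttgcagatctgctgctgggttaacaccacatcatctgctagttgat
IFI16, downstream start (chr1:159009657-159009906, plus strand): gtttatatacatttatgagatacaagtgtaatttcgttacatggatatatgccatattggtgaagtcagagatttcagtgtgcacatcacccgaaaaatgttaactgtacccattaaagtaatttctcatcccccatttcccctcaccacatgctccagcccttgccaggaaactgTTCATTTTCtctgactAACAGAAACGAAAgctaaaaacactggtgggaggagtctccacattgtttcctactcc
AIM2 (chr1:159076767-159077016, minus strand): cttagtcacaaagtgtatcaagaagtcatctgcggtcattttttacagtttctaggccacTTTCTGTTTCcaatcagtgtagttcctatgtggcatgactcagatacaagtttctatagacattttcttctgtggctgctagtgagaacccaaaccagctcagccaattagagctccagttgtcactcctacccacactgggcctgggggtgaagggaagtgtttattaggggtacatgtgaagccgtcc
SAMHD1 (chr20:36951709-36951958, minus strand): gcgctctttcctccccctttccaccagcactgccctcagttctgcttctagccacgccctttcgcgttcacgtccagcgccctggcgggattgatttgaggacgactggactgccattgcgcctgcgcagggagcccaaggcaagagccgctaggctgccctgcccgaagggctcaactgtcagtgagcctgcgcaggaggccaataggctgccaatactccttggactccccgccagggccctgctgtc

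The window of the downstream IFI16 start held 2 overlapping matches to AANNGAAA, from 58 to 46 bases before the start, and 1 match to GAAANNGAA on the opposite strand, from 74 to 66 bases before it. That of the upstream start held 1 match to AANNGAAA, on the opposite strand. The AIM2 window also held both motifs, overlapping on the opposite strand from 190 to 181 bases before the start. None of the 3 motifs was found in the SAMHD1 window or in that of TREX1. Over all 35116 windows of 250 bases in the table, GAAANNGAA was present in 6.88%, AANNGAAA in 20.3% and TTCNNNGAA in 6.57%. A match is a run of letters and not a bound site, and these windows leave out the rest of each promoter.

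AIM2, which recruits the adaptor PYCARD and caspase-1 to DNA, lies beside IFI16 on chromosome 1, in a cluster that also holds the family members MNDA and PYHIN1. AIM2 read 1.73 with sgIL1RN1~3, 1.62 with sgTetO and 1.62 with sgTetOmut on the log2 scale, and the sgTetO and sgTetOmut values were identical. The cluster's other measured members, MNDA and PYHIN1, were also under background on all arrays, at 2.46 to 2.50 and 1.80 to 1.89. IFI16 was therefore the 1 measured PYHIN gene above background, and no direction can be given for the others.

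ZBP1, which binds Z-form nucleic acid and can engage RIPK3 and cell death, was low but above background. It read 4.09 on the log2 scale with sgIL1RN1~3, 4.22 with sgTetO and 4.24 with sgTetOmut. The 3 values lie within 0.15 log2 units of each other.

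SAMHD1 hydrolyses the deoxynucleotides that DNA synthesis needs and so limits reverse transcription of retroviruses. Its 1 set, 204502_at, read 7.24 with sgIL1RN1~3, 7.48 with sgTetO and 8.04 with sgTetOmut on the log2 scale. Its log2 difference from sgTetOmut was -0.81 with sgIL1RN1~3 (1.75-fold lower) and -0.56 with sgTetO (1.47-fold lower), short of 2-fold in both cases. Few genes differed as far in that direction: SAMHD1 ranked 52 from the lowest of the 6056 genes that reached the median level on sgTetO or sgTetOmut, and 46 of 6108 for sgIL1RN1~3 against sgTetOmut. For sgIL1RN1~3 minus sgTetO its difference was -0.25, at rank 735 from the lowest of 6106 genes.

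The exonuclease TREX1, which degrades DNA that reaches the cytosol, cannot be separated from ATRIP, a partner of the checkpoint kinase ATR, in these data. The shared set 205875_s_at read 5.04 with sgIL1RN1~3, 5.16 with sgTetO and 4.84 with sgTetOmut on the log2 scale. The second shared set, 34689_at, read 5.57 with sgIL1RN1~3, 5.75 with sgTetO and 5.62 with sgTetOmut. Neither set had the order seen for IFI16: sgTetO was highest in both, by 0.33 and 0.12 over sgTetOmut.

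The APOBEC3 enzymes deaminate cytosine to uracil in single-stranded DNA, and their genes form a cluster on chromosome 22 whose close sequence likeness allows cross-hybridization. APOBEC3G, which mutates retroviral DNA, read 6.42 with sgIL1RN1~3, 6.86 with sgTetO and 7.18 with sgTetOmut in set 204205_at (log2). Its log2 difference from sgTetOmut was -0.76 with sgIL1RN1~3 (1.69-fold lower) and -0.32 with sgTetO (1.25-fold lower). That ranked it 55 from the lowest of 6108 genes and 186 of 6056 at the median level or above. The second APOBEC3G set, 215579_at, did not share this order, at 3.64 with sgIL1RN1~3, 3.40 with sgTetO and 3.60 with sgTetOmut, and on the sgTetO array it was not above background. A set shared with APOBEC3F was under background on all 3 arrays.

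APOBEC3B, a nuclear deaminase, read 5.91 with sgIL1RN1~3, 6.09 with sgTetO and 6.11 with sgTetOmut on the log2 scale. APOBEC3C, a single-domain member measured by a set whose suffix marks possible cross-hybridization, read 6.31 with sgIL1RN1~3, 6.19 with sgTetO and 6.19 with sgTetOmut, the last 2 values being identical. APOBEC3F, outside the 8 genes but in the same cluster, read 5.97 with sgIL1RN1~3, 5.95 with sgTetO and 6.09 with sgTetOmut. Within this family, set 204205_at of APOBEC3G was thus the 1 set above background on all arrays that differed by more than 0.20 log2 units between any pair.

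**Figure D2:**
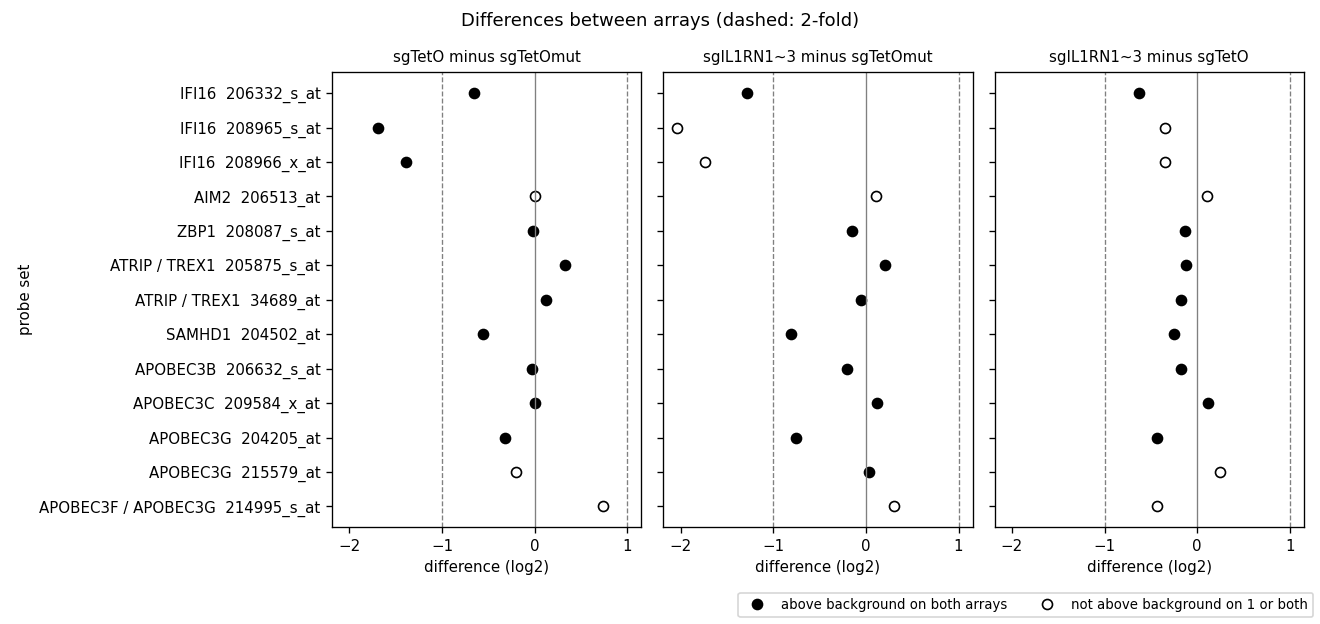
Differences between arrays (horizontal axis, log2) for the 13 probe sets (vertical axis) in the 3 comparisons, with open points where 1 or both arrays were not above background and dashed lines at 2-fold. The IFI16 sets lie furthest left against sgTetOmut. Between sgIL1RN1~3 and sgTetO no filled point lies beyond 2-fold.

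For a count over genes, each gene was represented by its brightest probe set, judged by the mean of the 3 arrays. A gene was counted when it differed by at least 2-fold and its higher value reached the median of all named genes on that array (6.23 with sgIL1RN1~3, 6.19 with sgTetO and 6.19 with sgTetOmut, log2) and lay above background. By this rule 0 of the 7 genes were counted between sgTetO and sgTetOmut, where 0.309% of all named genes were lower with sgTetO and 0% higher. Between sgIL1RN1~3 and sgTetOmut 0 of 7 were counted, against 0.318% of genes lower and 0.0167% higher with sgIL1RN1~3. Between sgIL1RN1~3 and sgTetO the count was also 0, with 0.0334% of genes lower and 0.0502% higher. IFI16 was left out by its level, which was under the median on every array, and for sgTetO also by the set that stood for it, 206332_s_at, the least different of the 3. Without a minimum level, IFI16 was the 1 gene of 7 at least 2-fold lower with sgIL1RN1~3 than with sgTetOmut, where 0.476% of genes were.

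Of the 7 genes, 5 (IFI16, ZBP1, SAMHD1, APOBEC3B and APOBEC3G) had the order sgIL1RN1~3 below sgTetO below sgTetOmut, which 15.1% of all named genes showed. For ZBP1 and APOBEC3B sgTetO minus sgTetOmut was -0.02 log2 units each, and under quantile scaling that of APOBEC3B turned to the other sign. The median difference of the 7 genes was -0.02 for sgTetO minus sgTetOmut, against -0.01 over all named genes, and -0.20 for sgIL1RN1~3 minus sgTetOmut, against 0.00. For sgIL1RN1~3 minus sgTetO it was -0.17, against 0.01. Any 2 of these 3 comparisons share an array, so they are not independent. For each gene the third difference is the second minus the first.

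**Figure D3:**
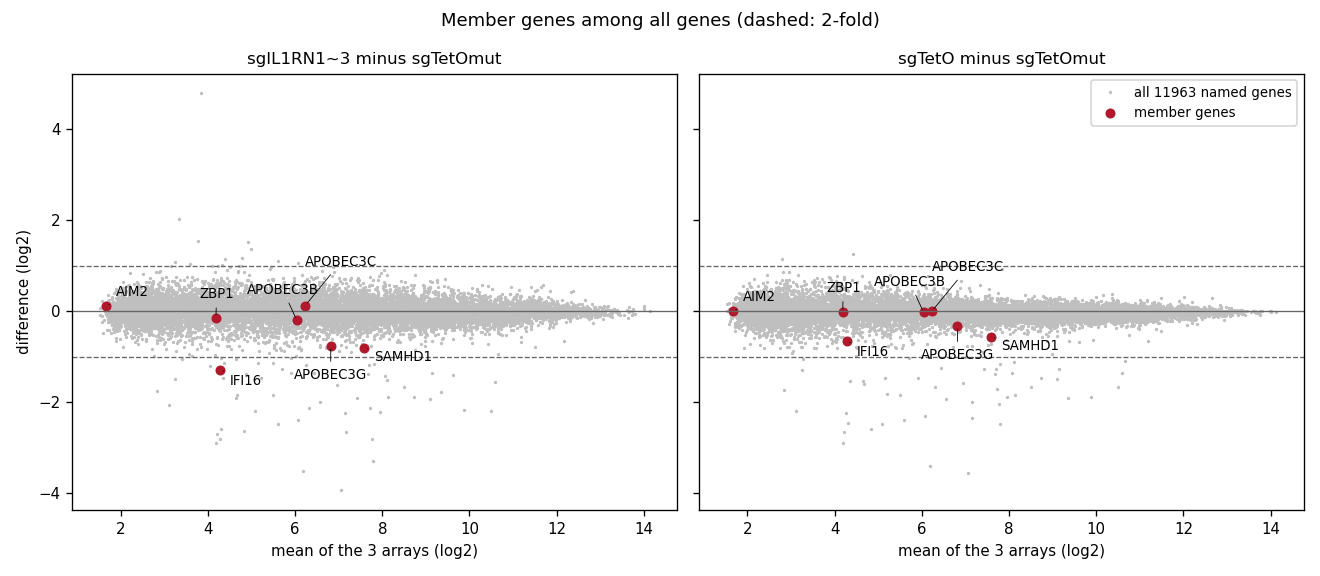
Differences from sgTetOmut (vertical axis, log2) against the mean of the 3 arrays (horizontal axis, log2) for all 11963 named genes in grey and the 7 measured genes in red, for sgIL1RN1~3 on the left and sgTetO on the right. IFI16 and SAMHD1 lie at the lower edge of the grey band in both panels and APOBEC3G does so on the left, and the other 4 genes lie inside it.

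The genes most like IFI16, SAMHD1 and APOBEC3G were sought by the smallest distance over the 3 arrays between log2 values centred on each gene's mean, among up to 6149 genes that reached the median level on any array. These 3 genes were chosen for this after their values were seen. For IFI16 set 206332_s_at, the 1 IFI16 set above background on all arrays, they were PLSCR1, NME5 and DNAJC15, at distances of 0.09, 0.24 and 0.30 log2 units. The other 2 IFI16 sets had a value under background with sgIL1RN1~3, so that their distances are less certain. For set 208965_s_at the nearest genes were SHFL, SP110 and IFITM1, at 0.07, 0.09 and 0.14. For set 208966_x_at they were DDX60, IFIT5 and RIGI, at 0.10, 0.14 and 0.14. For SAMHD1 they were ZC3HAV1, B2M and MT1X, at 0.05, 0.09 and 0.11, and for APOBEC3G they were ANKRD12, B2M and LIMA1, at 0.02, 0.09 and 0.09. With 3 arrays such a likeness rests on 3 points.

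Facts of the arrays stand beside these values. On the sgIL1RN1~3 array the 5′ controls of ACTB and GAPDH were 0.66 to 0.95 log2 units higher than on the other arrays. Their middle controls were 0.54 to 0.69 higher, while their 3′ controls differed by at most 0.07. The part of this in the lower IFI16, SAMHD1 and APOBEC3G values of that array was not tested. All 9 measured marker genes of HEK293 cells were above background on every array, among them GAP43 at 6.50, 6.23 and 6.48 and PAX2 at 5.62, 5.68 and 5.97 (log2, sgIL1RN1~3, sgTetO and sgTetOmut). The second PAX2 set, 206229_x_at, had another order, at 4.08, 4.30 and 4.08. LHX1, named after its values were seen, was the lowest of the 9 and close to background, at 3.51, 3.51 and 3.64. IFI16, AIM2 and SAMHD1 are abundant in blood cells, and of 8 measured blood and endothelial markers 2, 2 and 3 were above background in the same order of arrays. PTPRC, CD3E, LYZ and HLA-DRA were under it on all 3. The summed linear level of these 8 markers was 67.4, 67.4 and 74.0, with CD14 at 3.89, 3.83 and 4.23 and CDH5, named after its values were seen, at 3.74, 3.53 and 3.74 (log2). PECAM1, at 3.71, was above background with sgTetOmut and under it on the other arrays. The part of these markers in the sgTetOmut values was not tested. Of 7 fibroblast and muscle markers 6 were above background on each array, and of 5 squamous and liver markers 2, 1 and 2.

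Genes that act with these 8 were taken from 6 lists, and 69 of their 95 entries were measured. By the counting rule, 0.309% of all named genes were lower with sgTetO than with sgTetOmut, and 0.318% with sgIL1RN1~3. The shares higher were 0% and 0.0167%, and sgIL1RN1~3 against sgTetO had 0.0334% lower and 0.0502% higher. At such shares a count of 0 in a short list says little about its genes. In the list of cytosolic DNA sensing and its signalling, 0 of 17 measured genes were 2-fold apart in any comparison. TBK1, the kinase downstream of STING, read 8.65 with sgIL1RN1~3, 8.79 with sgTetO and 8.99 with sgTetOmut (log2), and MRE11, a nuclease subunit of DNA repair, read 7.59, 8.27 and 7.98 in that order. The list's median difference was 0.01 for sgIL1RN1~3 and -0.03 for sgTetO, each against sgTetOmut. cGAS and STING had no set with their symbol and were not analysed here.

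Of 7 measured partners of AIM2 and ZBP1 in the inflammasome and in necroptosis, 4 were above background on each array, and 0 were 2-fold apart. CASP8, a protease of cell death, was the highest of them by the sets that stood for the genes, at 6.51 with sgIL1RN1~3, 6.82 with sgTetO and 6.88 with sgTetOmut (log2), and was named after its values were seen. PYCARD, the adaptor that AIM2 needs, was under background on all arrays, as were CASP1 and IL18 by the sets that stood for them. NLRP3, another inflammasome sensor, read 4.41 with sgIL1RN1~3, 4.31 with sgTetO and 4.49 with sgTetOmut (log2), and NLRP1 read 3.51, 3.50 and 3.71. With sgIL1RN1~3 and sgTetO, NLRP1 lay close to the background of 3.40. The further sets of both genes were under background on all arrays. The list's median difference against sgTetOmut was -0.08 with sgIL1RN1~3 and -0.18 with sgTetO, with 3 of the 7 genes under background.

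Of 14 measured nucleases and genes of Aicardi-Goutieres syndrome, an inherited interferon disease to which TREX1 and SAMHD1 also belong, 0 were 2-fold apart. ADAR, which edits double-stranded RNA, read 12.3 with sgIL1RN1~3, 12.2 with sgTetO and 12.5 with sgTetOmut (log2). DNASE1L1 differed from sgTetOmut by -0.14 with sgIL1RN1~3 and by -0.29 with sgTetO. The list's lowest difference of sgIL1RN1~3 from sgTetOmut was that of RNASEH2B, a subunit of the enzyme that removes RNA from DNA. RNASEH2B was named here after its values were seen. Its set 219056_at read 7.24 with sgIL1RN1~3, 8.02 with sgTetO and 7.99 with sgTetOmut, and its second set, 215040_at, read 3.28, 4.17 and 4.06, the first of them under background. RNASEH2B was thus low on the sgIL1RN1~3 array in both sets, a pattern unlike that of IFI16. The list's median was 0.00 with sgIL1RN1~3 and -0.01 with sgTetO against sgTetOmut.

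The remaining APOBEC, AID and uracil repair genes (6 measured) and the enzymes of the nucleotide pool that SAMHD1 draws on (11 measured) also held 0 genes 2-fold apart. Their medians against sgTetOmut were -0.02 and 0.05 with sgIL1RN1~3 and -0.02 and -0.03 with sgTetO. MBD4, a DNA glycosylase, read 9.17 with sgIL1RN1~3, 9.61 with sgTetO and 9.50 with sgTetOmut in 1 of its 4 sets (log2), and the sets disagreed in sign between sgTetO and sgTetOmut. DUT, which keeps uracil out of DNA, differed from sgTetOmut by 0.01 with sgIL1RN1~3 and by -0.18 with sgTetO, and DCK, a deoxynucleoside kinase, by 0.09 and 0.10.

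The list for restriction of retroelements and of foreign DNA held the 1 gene that passed, SP100, a nuclear body protein that represses incoming viral DNA. SP100 read 5.24 with sgIL1RN1~3, 5.32 with sgTetO and 7.62 with sgTetOmut (log2, set 202863_at). Its next brightest set, 202864_s_at, read 3.98, 4.35 and 6.39. A further SP100 set, 210985_s_at, read 2.70, 2.98 and 3.29, above background only with sgTetOmut and there barely. The SP100 sets 210218_s_at and 210219_at were under background on all arrays. In set 202863_at the log2 difference from sgTetOmut was -2.38 with sgIL1RN1~3 and -2.30 with sgTetO. In each of these comparisons 1 of 14 measured genes was counted, where 0.318% and 0.309% of all named genes were lower. PML, ZC3HAV1 and TRIM5 were the next lowest, at -0.74, -0.86 and -0.52 with sgIL1RN1~3 and at -0.90, -0.56 and -0.52 with sgTetO. They were named after their values were seen, and the second ZC3HAV1 set differed by -0.17 with sgIL1RN1~3 and by -0.90 with sgTetO. Of the 8 PML sets, 6 were above background on at least 1 array, and these differed from sgTetOmut by -0.74 to -0.01 with sgIL1RN1~3 and by -0.90 to -0.30 with sgTetO. The list's median was 0.03 with sgIL1RN1~3 and -0.01 with sgTetO.

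**Figure D4:**
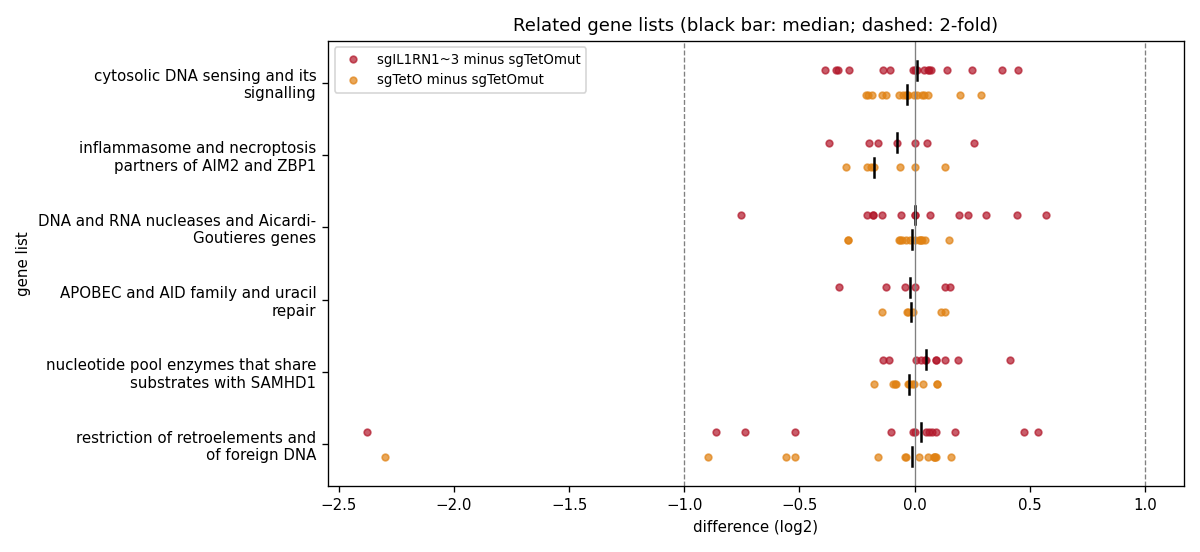
Differences from sgTetOmut (horizontal axis, log2) of the measured genes of 6 related lists (vertical axis), sgIL1RN1~3 in the upper and sgTetO in the lower row of each list, with a black bar at the median. SP100, at -2.38 and -2.30, is the 1 gene beyond the 2-fold lines.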

How the data were processed

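The deposited table holds 1 column per array. Its values were taken as log2 from their range, 1.36 to 14.5; the submitters' processing notes name affy, and its version and the authors' background correction, normalization and summary steps are not given here. The sorted columns lay within 0.104 log2 units of their mean at every rank, so the deposited arrays had been brought to nearly 1 distribution and differences are relative to the bulk of genes. On a given pair of arrays 6.21% to 8.25% of sets held identical values.

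Sets were named from GEO's platform annotation: 19070 had 1 symbol, 1043 several and 2164 none, and 19058 identifiers matched the GRCh38.p14 gene table. The counting rule and background scale are given above. Related genes were named when counted as 2-fold apart, otherwise the 2 of each list furthest apart between sgTetO and sgTetOmut among those above background on at least 1 array; exceptions are marked. The genes, lists and rules were chosen with earlier results of these data known. Alternatives were other scalings, levels, limits and probe sets. Computations used Python 3.11.15, numpy 2.4.6, pandas 2.3.3, R 4.3.3 and limma 3.58.1.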

Additional observations from a re-analysis of the deposited data

How the results depend on the processing

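No paired analysis was possible because each condition was 1 array. The count of 0 of 7 genes between sgTetO and sgTetOmut was the same under quantile and cyclic loess scaling, 16 added to the linear values, other minimum levels, limits of 1.5-fold and 3-fold, and the mean of all sets; it became 1 (IFI16) with no minimum level together with either the mean of all sets or the set brightest on any array, both added after the data were seen. Between sgIL1RN1~3 and sgTetOmut the count became 1 (IFI16) with no minimum level, also with either of these set choices, and 2 (SAMHD1 and APOBEC3G) at 1.5-fold; between sgIL1RN1~3 and sgTetO it was 0 throughout. The counts over all genes in the 3 comparisons were 37, 40 and 10 as reported, 55, 151 and 200 at 1.5-fold, 21, 25 and 1 at 3-fold, 51, 71 and 27 with no minimum level, and 18, 18 and 2 with the upper quartile as minimum level. With 16 added to the linear values the third was 5. Without a minimum level the set brightest on any array gave 52, 71 and 29 and the mean of all sets 50, 63 and 13. The IFI16 difference depended on the set and on added intensity: for sgTetO minus sgTetOmut it was -0.66 as counted, -1.25 for the mean of its sets and -0.39 with 16 added, and for sgIL1RN1~3 minus sgTetOmut -1.28, -1.69 and -0.70. For sgIL1RN1~3 minus sgTetO the IFI16 difference was -0.63, -0.44 and -0.31 in the same order of settings. APOBEC3G was -0.36 against sgTetOmut with sgIL1RN1~3 by the mean of its sets, in place of -0.76. Of 105 values of single genes under alternatives, 94 moved by under 0.1 log2 units. The other 11 were all of IFI16 or APOBEC3G. Genes with 1 set could not move where only the choice of set changed, and such values are part of the 94. Above background stood 6 of 7 genes on each array, also with the median Bacillus control, quantile scaling or the mean of all sets. For IFI16, closeness to background limits the size of the differences.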
